A study of Mus musculus with 18 samples.

Results

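The unfolded protein response and the folding machinery of the endoplasmic reticulum (ER) were followed across islets with and without a MafA variant. The module holds 32 genes taken by symbol. The rule that picks them uses no measured value, but the list was drawn up with earlier results of these data known. Each symbol was found once among the 53801 mouse genes listed. They comprise 3 stress sensors, 22 genes of the ATF6/XBP1 chaperone arm and 7 genes of the ATF4 arm. All 32 passed the filter on low counts, as did 18364 genes in all, and were tested.

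The libraries were made from total RNA of isolated whole islets of Langerhans from mice 5 weeks old, fed normal chow. Their genotype was wild type (WT) or heterozygous for the S64F change in MafA (S64F/+), a beta-cell transcription factor of the insulin genes. Males gave 4 WT and 4 S64F/+ libraries, females 5 WT and 5 S64F/+ libraries. The labels do not name the strain or how the allele was introduced, and they do not say that each library came from a separate animal, so p-values measure the spread between these libraries, which may be technical. Library totals ran from 19.3 to 108.7 M counts, with a median of 42.4 M. Expression is given as CPM, which is counts scaled to the library size after a correction for library composition, with the SD over the libraries of a group, and a difference between groups as a log2 fold change with its standard error. A gene was called where its adjusted p from edgeR's quasi-likelihood fit, corrected over all tested genes of a comparison, was below 0.05.

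Secretory cells fold proteins such as proinsulin in the ER, and the unfolded protein response matches folding capacity to that load. Of its sensors, ATF6 is cleaved to an active transcription factor, IRE1 (gene Ern1) splices Xbp1 mRNA into the form that encodes active XBP1, and PERK (gene Eif2ak3) phosphorylates the initiation factor eIF2, which lowers general translation and favours that of ATF4. ATF6 and XBP1 drive genes of chaperones, disulphide isomerases and ER-associated degradation, while ATF4 drives genes of amino acid supply, redox balance and, through CHOP (gene Ddit3), cell death. Beta cells carry a heavy insulin load and depend on this system. Counts per gene show neither Xbp1 splicing, ATF6 cleavage nor the translation of ATF4.

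Some promoter letters were more frequent in the windows of one arm than of the other, with no test run on these shares. The arms were grouped by the factors of this response, so such a difference is not an independent result. RefSeq promoter windows on GRCm38.p6, reaching from 250 bases before to 50 bases after the transcription start, were matched for 28 of the 32 genes. Hyou1, Atf6, Manf and Eif4ebp1 had no entry. Both strands were searched for the ER stress response element, which is CCAAT and CCACG with any 9 bases between them. It was found in 9 of the 20 chaperone-arm windows (Hspa5, Hsp90b1, Dnajc3, Pdia6, Calr, Canx, Creld2, Syvn1 and Derl3), in 0 of 6 ATF4-arm windows and in 37 of 27025 genes in all (0.137%). The following stretches show it in 6 genes, with the fixed letters in capitals and 10 bases on either side. In Calr and Creld2 the element lies on the opposite strand, so the capitals read as its reverse complement.
Hspa5, chr2:34772015-34772053, plus strand: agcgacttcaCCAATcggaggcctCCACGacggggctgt
Dnajc3, chr14:118937817-118937855, plus strand: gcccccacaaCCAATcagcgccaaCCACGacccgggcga
Pdia6, chr12:17266481-17266519, plus strand: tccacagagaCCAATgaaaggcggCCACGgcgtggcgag
Canx, chr11:50325790-50325828, minus strand: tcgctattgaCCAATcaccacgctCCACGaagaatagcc
Calr, chr8:84847065-84847103, minus strand: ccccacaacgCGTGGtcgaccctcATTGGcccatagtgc
Creld2, chr15:88819510-88819548, plus strand: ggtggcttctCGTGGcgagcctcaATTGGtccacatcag

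The shorter element, which is ATTGG and CCACG with any 1 base between them, was found in the windows of Dnajb11 and Herpud1 and in 12 of 27025 genes (0.0444%). Its CCACG letters are those that also end the longer element. Alone, CCACG was in 18 of 20 chaperone-arm windows against 35.5% of all genes. The XBP1-type core TGACGTGG was in none of the 28 windows and in 0.714% of all genes, which says only that these letters are not in these windows. The composite C/EBP-ATF letters TGATGNAAN, of the kind bound by ATF4 with a C/EBP partner, were in 4 of 6 ATF4-arm windows (Atf3, Trib3, Chac1 and Asns), in Herpud1 of the chaperone arm, and in 4.5% of all genes. Herpud1 was the member with letters of both kinds. These stretches show them in capitals, and all but that of Asns read as the reverse complement.
Trib3, chr2:152344029-152344057, minus strand: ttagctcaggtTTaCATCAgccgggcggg
Chac1, chr2:119351038-119351066, plus strand: cttccctgccgTTgCATCActcctgccag
Asns, chr6:7693214-7693242, minus strand: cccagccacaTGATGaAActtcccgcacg
Atf3, chr1:191183426-191183454, minus strand: ccttctcgcacTTgCATCAccaagtccgc
Herpud1, chr8:94386306-94386397, plus strand: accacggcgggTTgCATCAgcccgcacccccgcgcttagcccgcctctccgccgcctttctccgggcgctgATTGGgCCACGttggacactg
A match of letters is a description of the sequence and not evidence that a factor was bound there.

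Compared per length, as FPKM (counts scaled by library total and gene length), the most abundant members were chaperones and isomerases, while the arms overlapped in level. Over the 18 libraries the highest mean levels were those of Calr, the calcium-binding lectin chaperone calreticulin, at 211 FPKM, of the disulphide isomerase Pdia3 at 209, and of the abundant Hsp70 and Hsp90 chaperones Hspa5 at 189 and Hsp90b1 at 174. The lowest mean levels were those of Derl3, a channel component of ER-associated degradation, at 2.45 FPKM and of the pseudokinase gene Trib3 at 2.08. Atf4, which ranked 14 of 32, had 43.7 FPKM and so stood above the chaperone gene Hyou1 at 41.0, and Asns at 11.8 stood above Edem1 at 7.94. Xbp1 varied least of all 32 genes over the libraries (coefficient of variation 5.43% in FPKM with a mean of 53.9, and 10.2% in CPM) and Atf3, an immediate stress-induced transcription factor, varied most (93.5% in FPKM with a mean of 6.97, and 96.7% in CPM). The chaperone arm took between 0.741% and 1.16% of all counts of a library, and the ATF4 arm between 0.0242% and 0.056%.

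**Figure D1:**
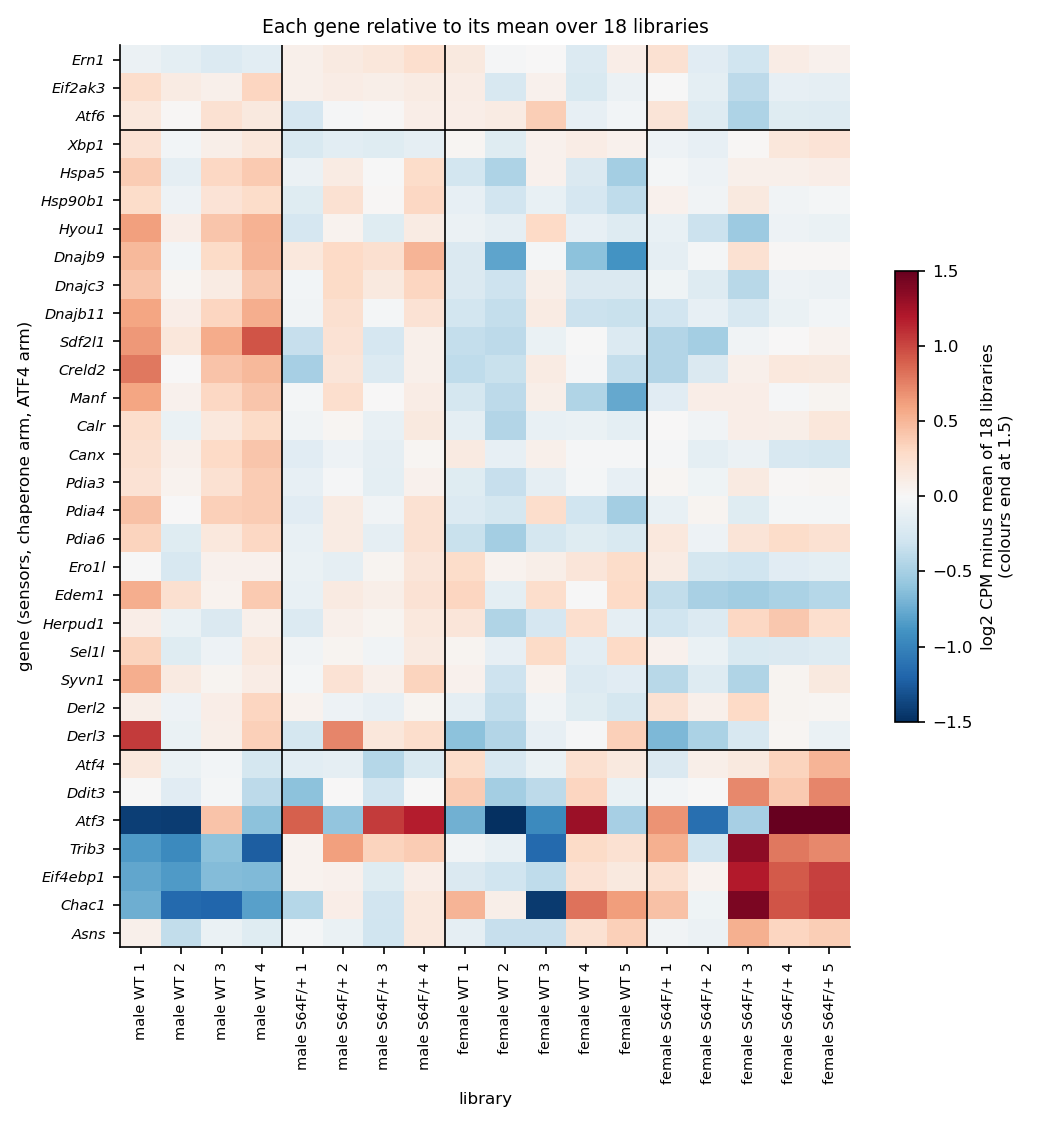
Log2 CPM of each of the 32 genes (rows, in the order sensors, chaperone arm, ATF4 arm) in each of the 18 libraries (columns) relative to the gene's mean over all libraries, with colours ending at 1.5. The chaperone arm is furthest above its mean in male WT 1, 3 and 4 (median deviations of 0.39, 0.18 and 0.38) and in male S64F/+ 2 and 4 (0.12 and 0.17). It is slightly above it in female WT 3 (0.06) and in female S64F/+ 4 and 5 (0.01 and 0.02). The ATF4 arm is highest in female S64F/+ 3, 4 and 5 (0.72, 0.79 and 0.73).

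The genotype effect in males was taken from S64F/+ against WT libraries. Mafa itself, counted over both alleles, fell there by 2.20 ± 0.22 on the log2 scale (edgeR adjusted p 1.77e-06) and in females by 2.00 ± 0.20 (edgeR adjusted p 1.6e-06). Of the 32 genes, 9 were called (28.1%), against 27.6% of all tested genes. Of these, 3 were higher (15.3% of all genes were called higher) and 6 were lower (12.3%), so the share called was near that of the whole transcriptome. All 6 lower genes belonged to the chaperone arm. Its 22 genes had a median log2 fold change of -0.16, with 20 below 0, where the median of all genes was -0.03. The ATF4 arm had a median of 0.75, with 5 of its 7 genes above 0 and 2 called, both higher. Of the sensors, 1 of 3 was called.

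Trib3 encodes a pseudokinase that restrains AKT signalling and ATF4 itself. Trib3 (ENSMUSG00000032715, a protein-coding gene at GRCm38 chromosome 2, 152337422 to 152344032, minus strand) had 3.26, 3.05, 3.86 and 2.51 CPM in the male WT libraries. Its values in male S64F/+ libraries were 6.09, 9.01, 7.40 and 7.67 CPM. Every S64F/+ library was above every WT library, and Trib3 rose by 1.25 ± 0.30 on the log2 scale (edgeR adjusted p 0.00403). Eif4ebp1 encodes the binding protein that holds back the cap-binding factor of translation. Eif4ebp1 (ENSMUSG00000031490, chromosome 8, 27260329 to 27276674, plus strand) had 6.91, 6.56, 7.51 and 7.48 CPM in male WT libraries, against 12.3, 12.4, 10.4 and 12.7 CPM with the variant. These ranges did not overlap either, and the gene rose by 0.75 ± 0.21 (edgeR adjusted p 0.0108). Chac1, which degrades glutathione, had means of 6.16 ± 1.01 CPM in WT and of 11.2 ± 2.21 CPM in S64F/+ libraries with ranges apart, and missed the threshold (log2 fold change 0.87 ± 0.37, edgeR adjusted p 0.0932). Chac1 was called by DESeq2 (adjusted p 0.0344), by edgeR on the 8 male libraries alone (adjusted p 0.00306), with library totals (0.0186) and without female WT 3 (0.0169). Non-overlapping ranges were found for 35.1% of all tested genes in this comparison. The asparagine synthetase gene Asns differed by 0.08 ± 0.17, with a 95% interval of -0.25 to 0.41.

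The upstream factors of that arm gave no call in males. Atf4 stood at 184 ± 22.6 CPM in WT against 162 ± 14.1 CPM in S64F/+ islets (log2 fold change -0.18 ± 0.14, edgeR adjusted p 0.379). Ddit3, the CHOP gene, had 17.2 ± 2.08 and 16.5 ± 3.16 CPM (-0.06 ± 0.22, edgeR adjusted p 0.866). Atf3 had 8.01, 7.98, 28.6 and 13.9 CPM in WT and 39.7, 14.2, 44.3 and 48.4 CPM in S64F/+ libraries. Its ranges overlapped, and its log2 fold change was 1.32 ± 0.82 (edgeR adjusted p 0.259). Among the sensors, Ern1 rose from 173 ± 5.51 to 214 ± 10.3 CPM (0.31 ± 0.10, edgeR adjusted p 0.0282), with the ranges apart. The PERK gene Eif2ak3 (-0.10 ± 0.09) and Atf6 (-0.17 ± 0.12) were not called.

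In the chaperone arm of males the largest fall was in Sdf2l1, a cochaperone partner of BiP that keeps unfolded proteins soluble. Sdf2l1 (ENSMUSG00000022769, chromosome 16, 17130138 to 17132383, minus strand) had 230, 165, 216 and 282 CPM in WT and 116, 170, 123 and 155 CPM in S64F/+ libraries. The ranges touched only through WT 2 and S64F/+ 2, and the gene fell by 0.66 ± 0.16 on the log2 scale (edgeR adjusted p 0.00523). Creld2, a redox-active chaperone, fell from 125 ± 27.2 to 86.0 ± 17.7 CPM (-0.54 ± 0.18, edgeR adjusted p 0.0314). Hyou1, the nucleotide exchange factor of BiP, fell from 1269 ± 187 to 909 ± 111 CPM (-0.48 ± 0.14, edgeR adjusted p 0.0135). Canx, the membrane lectin chaperone calnexin, had 658, 587, 684 and 742 CPM in WT and 493, 526, 507 and 565 CPM in S64F/+ libraries, with no overlap (-0.35 ± 0.09, edgeR adjusted p 0.00577). Xbp1 fell by 0.29 ± 0.09 (edgeR adjusted p 0.0187), and Pdia3, the isomerase that works with calnexin and calreticulin, fell by 0.27 ± 0.09 (edgeR adjusted p 0.0281). The most abundant chaperones were not called. Hspa5, which encodes BiP, had 1892 ± 297 CPM in WT against 1679 ± 186 CPM in S64F/+ islets (-0.17 ± 0.13, 95% interval -0.43 to 0.08). Hsp90b1 differed by -0.07 ± 0.11, with an interval of -0.29 to 0.14. None of the 6 genes of ER-associated degradation was called, with a median of -0.10.

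The sign of the chaperone arm in males depended on the scaling of the libraries, which moves all genes of a comparison by nearly the same amount. Ins1 and Ins2 summed to a mean of 95727 FPKM in male WT and 54838 in male S64F/+ islets. With library totals in place of composition scaling, the median log2 fold change of all genes moved from -0.03 to 0.19 and that of the chaperone arm from -0.16 to 0.06, with 12 genes above 0 and 10 below. Relative to the median of all genes, 19 of its 22 genes were lower, a count that a common shift cannot change much. The members called were then Trib3, Eif4ebp1, Ern1 and Chac1 as higher and Sdf2l1 as lower. The calls of Trib3, Eif4ebp1, Canx and Sdf2l1 held when any of the 18 libraries was left out. Hyou1 was lost without male WT 1 or male S64F/+ 1 (edgeR adjusted p up to 0.0509), and Xbp1 without those or male WT 4 (up to 0.0627). Pdia3 (up to 0.105) and Creld2 (up to 0.117) were lost without male WT 1, 3 or 4 or male S64F/+ 1 or 3, and Ern1 without male WT 2, 3 or 4 or male S64F/+ 3 or 4 (up to 0.0799). Dnajb11 was called lower without male WT 2 (edgeR adjusted p 0.0212) or female WT 3 (0.034).

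**Figure D2:**
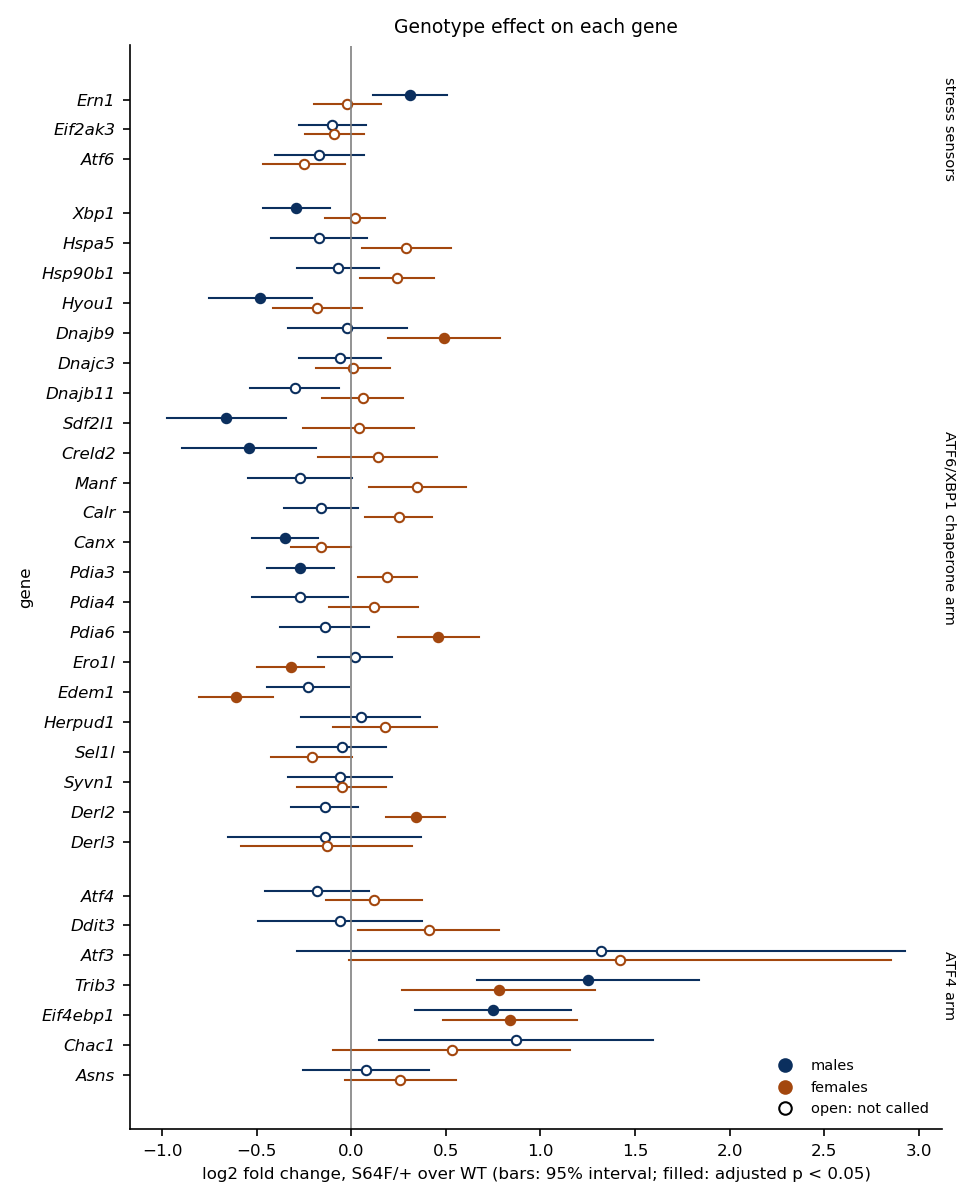
Log2 fold change of S64F/+ over WT for each gene in males (blue) and females (orange), with bars for the 95% interval and filled points where the edgeR adjusted p is below 0.05. In males 20 of 22 chaperone-arm genes lie below 0 under composition scaling (10 of 22 with library totals), in females 15 of 22 lie above 0, and Trib3 and Eif4ebp1 are filled in both sexes.

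In females the same comparison called 7 of the 32 genes (21.9%), against 21.2% of all tested genes. Of these 5 were higher (10.2% of all genes) and 2 were lower (11.0%). The chaperone arm split, with Dnajb9, Pdia6 and Derl2 higher and Edem1 and Ero1l lower, and its median log2 fold change was 0.09, against 0.02 for all genes. In the ATF4 arm 7 of 7 genes were above 0 with a median of 0.53, and Trib3 and Eif4ebp1 were called.

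Edem1, which extracts misfolded glycoproteins for degradation by trimming their mannose, fell in females. Edem1 (ENSMUSG00000030104, chromosome 6, 108828641 to 108859356, plus strand) had 131, 94.1, 125, 104 and 129 CPM in the female WT libraries. In female S64F/+ libraries it had 81.0, 74.6, 72.6, 75.4 and 77.5 CPM. All 5 S64F/+ values lay below the lowest WT value, and the gene fell by 0.61 ± 0.10 on the log2 scale (edgeR adjusted p 0.00028). None of the other 5 genes of ER-associated degradation was called lower in females. Sel1l and Syvn1, the core of the membrane ubiquitin ligase, differed by -0.21 ± 0.11 and -0.05 ± 0.12 and were not called. Derl2, a Derlin channel component, rose from 94.2 ± 7.57 to 119 ± 10.2 CPM (0.34 ± 0.08, edgeR adjusted p 0.00637), with ranges apart. Herpud1, which organises that ligase, differed by 0.18 ± 0.14 and was not called.

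Among the folding enzymes of females, Pdia6, an isomerase that also attenuates the IRE1 signal, rose. Pdia6 (ENSMUSG00000020571, chromosome 12, 17266545 to 17284770, plus strand) had 503, 444, 526, 561 and 541 CPM in WT and 706, 601, 727, 768 and 745 CPM in S64F/+ libraries. The ranges did not overlap, and the log2 fold change was 0.46 ± 0.11 (edgeR adjusted p 0.00491). Dnajb9, a BiP cochaperone that represses IRE1 and is a target of XBP1, had 204, 137, 233, 155 and 128 CPM in WT and 217, 232, 278, 240 and 240 CPM in S64F/+ libraries. WT 3 reached into the S64F/+ range, and Dnajb9 rose by 0.49 ± 0.15 (edgeR adjusted p 0.0223). Ero1l, the oxidase that recharges the isomerases, fell from 65.6 ± 4.73 to 52.5 ± 6.25 CPM (-0.32 ± 0.09, edgeR adjusted p 0.0136). Calr and Hsp90b1 had ranges apart, higher in S64F/+ islets, without passing the test (0.25 ± 0.09, edgeR adjusted p 0.0578, and 0.24 ± 0.10, edgeR adjusted p 0.0888). Non-overlapping ranges were found for 11.6% of all tested genes in females. Hspa5 had 1323 ± 216 CPM in WT against 1621 ± 84.7 CPM in S64F/+ islets (0.29 ± 0.12, edgeR adjusted p 0.0833). Manf, a secreted ER stress protein that protects beta cells, had 221 ± 48.3 and 281 ± 20.9 CPM (0.35 ± 0.13, edgeR adjusted p 0.0567).

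The ATF4-arm genes of females were uneven from library to library. Eif4ebp1 had 10.2, 9.57, 9.06, 13.7 and 13.1 CPM in WT and 13.9, 12.3, 27.0, 22.3 and 24.0 CPM in S64F/+ libraries. S64F/+ 3, 4 and 5 stood well above S64F/+ 1 and 2, and S64F/+ 2 lay inside the WT range. Eif4ebp1 rose by 0.84 ± 0.18 (edgeR adjusted p 0.00288). Trib3 had 5.66, 5.47, 2.62, 7.19 and 6.92 CPM in WT and 8.54, 4.80, 14.9, 10.2 and 9.72 CPM in S64F/+ libraries, with S64F/+ 2 inside the WT range. It rose by 0.78 ± 0.26 (edgeR adjusted p 0.0364). Chac1 was likewise higher in S64F/+ 3, 4 and 5 (31.8, 23.0 and 24.5 CPM) than in S64F/+ 1 and 2 (16.2 and 11.5 CPM), against 4.43 to 21.1 CPM in WT, and was not called (0.53 ± 0.32, edgeR adjusted p 0.26). Atf3 reached 73.6 and 123 CPM in S64F/+ 4 and 5, between 9.74 and 34.0 CPM in the other S64F/+ libraries and 51.8 CPM in WT 4, and was not called (1.42 ± 0.73, edgeR adjusted p 0.186). Without female WT 4 alone, Atf3 had a log2 fold change of 2.21 and was called (edgeR adjusted p 0.0404). Ddit3 differed by 0.41 ± 0.19 (edgeR adjusted p 0.139), Asns by 0.26 ± 0.15 (0.231) and Atf4 by 0.12 ± 0.13 (0.565).

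In females the calls of Edem1, Eif4ebp1, Ero1l, Derl2 and Pdia6 held in each of the 18 fits that left out a library. Trib3 lost its call without female WT 1, 2 or 3 or female S64F/+ 3, 4 or 5 (edgeR adjusted p up to 0.121) and in the fit that paired equal replicate numbers (0.107). Dnajb9 lost it without female WT 2 or 5 or female S64F/+ 3 (up to 0.0631). DESeq2 called 12 members, adding Hspa5, Hsp90b1, Pdia3, Calr and Manf as higher, while its share over all genes was 24.4%. Leaving out 1 library also brought calls. Without female WT 3, Manf (edgeR adjusted p 0.00682) and Hspa5 (0.0227) were called higher. Without female S64F/+ 1, Atf6 was called lower (0.00967) and Manf (0.0344) and Calr (0.0468) higher, and without male WT 2 Calr (0.0428) and Manf (0.0491) were.

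**Figure D3:**
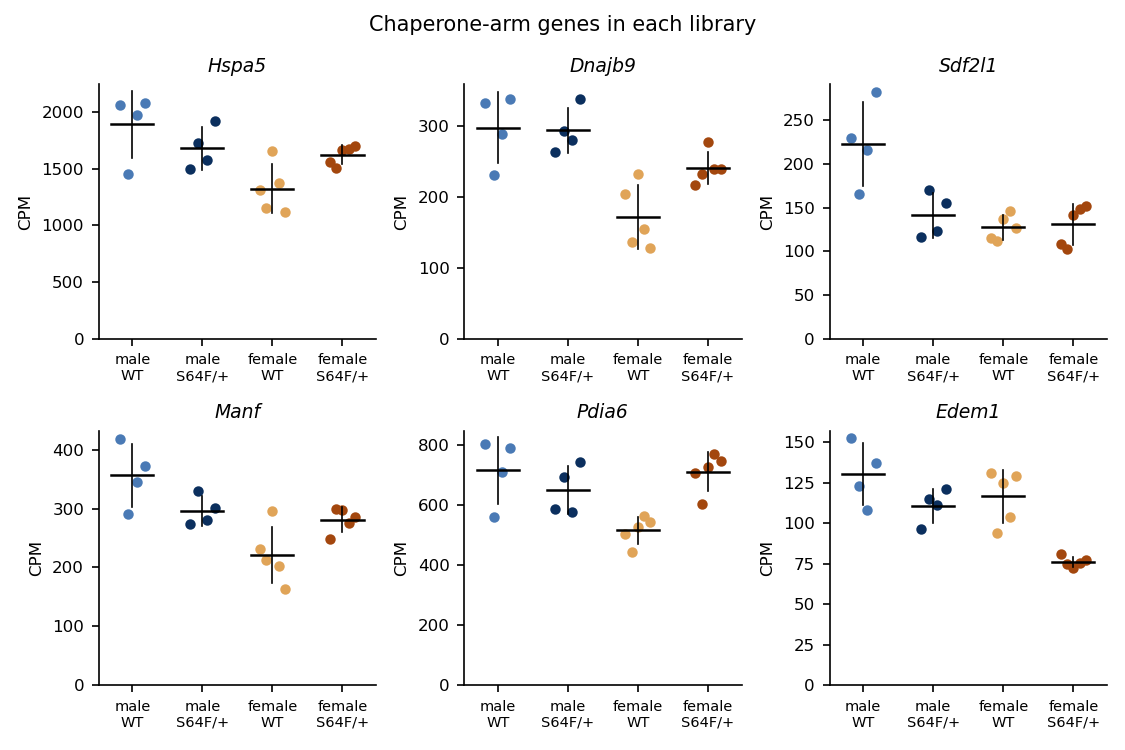
CPM of 6 chaperone-arm genes in each library (points), with the group mean (horizontal bar) and SD (vertical bar). Edem1 is lowest in all 5 female S64F/+ libraries (72.6 to 81.0 CPM), Pdia6 is higher in each female S64F/+ than in each female WT library, and male WT 2 is the lowest male WT library for Hspa5, Dnajb9, Sdf2l1, Manf and Pdia6.

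**Figure D4:**
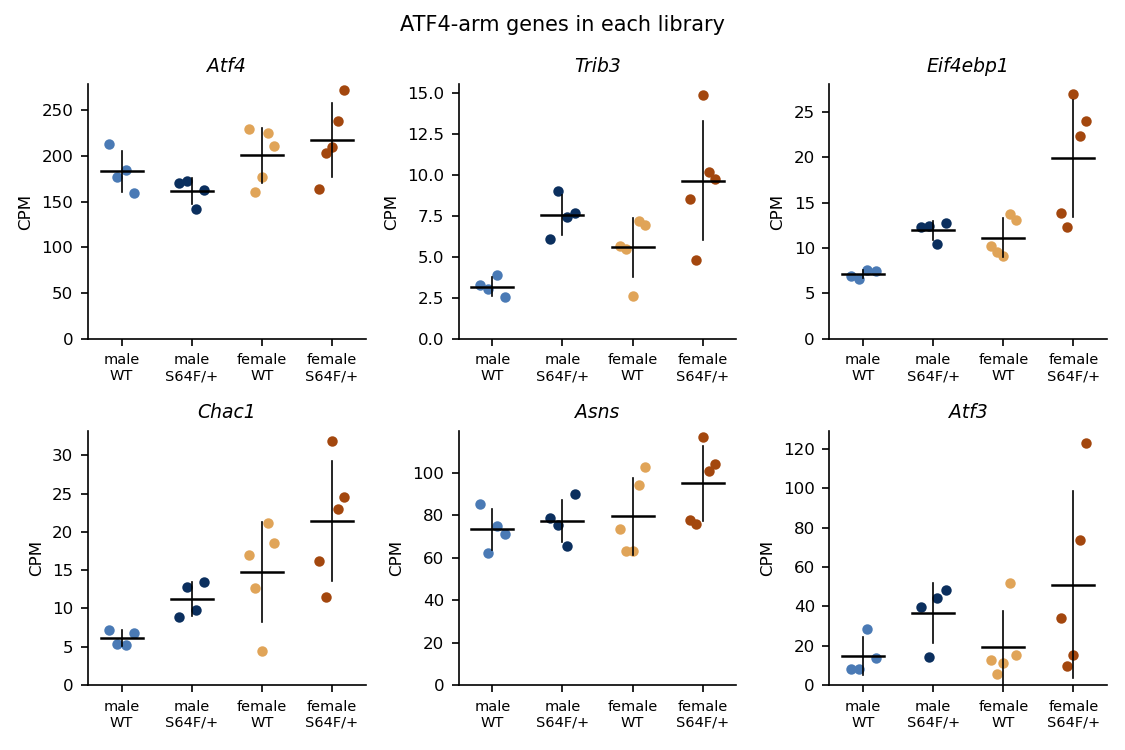
CPM of 6 ATF4-arm genes in each library (points), with the group mean (horizontal bar) and SD (vertical bar). Trib3 and Eif4ebp1 do not overlap between male WT and male S64F/+ libraries, and Atf3 spans 9.74 to 123 CPM within the female S64F/+ group.

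Whether the genotype effect differed between the sexes was tested as an interaction, the male minus the female log2 fold change. It was called for 3 members (9.38%), all lower, against 4.47% of all tested genes in either direction and 1.6% in that direction. Pdia6 had log2 fold changes of -0.14 in males and 0.46 in females and a difference of -0.60 ± 0.16 (edgeR adjusted p 0.0429). Derl2 had -0.14 and 0.34, a difference of -0.48 ± 0.12 (edgeR adjusted p 0.0369). Pdia3 had -0.27 and 0.19, a difference of -0.46 ± 0.12 (edgeR adjusted p 0.0386). The median difference was -0.34 over the chaperone arm, with 19 of 22 genes below 0, and -0.47 over the 9 lumenal chaperones and cochaperones, all below 0, where all genes had a median of 0.01. Sdf2l1 (-0.70 ± 0.22, edgeR adjusted p 0.0671) and Manf (-0.61 ± 0.19, edgeR adjusted p 0.0637) missed the threshold. In the ATF4 arm no difference between the sexes was called. That of Trib3 was 0.46 with a 95% interval of -0.30 to 1.23, and that of Eif4ebp1 -0.09 with an interval of -0.63 to 0.44.

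The 3 interaction calls were fragile. With library totals none of them was called, Edem1 (0.62, edgeR adjusted p 0.0344) and Ero1l (0.58, edgeR adjusted p 0.0263) were called higher instead, and the median of all genes moved from 0.01 to 0.25. Between 0 and 8 members were called when 1 library was left out, with 0 without female WT 2 or 5, male WT 1, 3 or 4, or male S64F/+ 1, 2 or 3, 1 without female WT 1 or female S64F/+ 4 or 5, 7 without female S64F/+ 1 and 8 without male WT 2.

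Among WT islets, the comparison of males with females showed the chaperone arm at a higher level in males. It called 10 of the 32 genes (31.3%), all higher in males and all in the chaperone arm, against 2.36% of all tested genes in either direction and 1.73% in that direction. The male WT libraries also serve as controls of the male genotype comparison and the female WT libraries of the female one, so these comparisons are not independent and their values are given side by side only. The arm had a median log2 difference of 0.41, with 20 of 22 genes above 0, and all genes had -0.04. Of the 9 lumenal chaperones and cochaperones, 7 were called, as were the isomerases Pdia3, Pdia4 and Pdia6. None of the ER-associated degradation genes, the sensors or the ATF4-arm genes was called.

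Hspa5 (ENSMUSG00000026864, chromosome 2, 34771970 to 34777547, plus strand) had 2061, 1452, 1973 and 2082 CPM in male WT and 1315, 1155, 1660, 1370 and 1116 CPM in female WT libraries. Male WT 2 and female WT 3 overlapped, and the difference was 0.52 ± 0.12 on the log2 scale (edgeR adjusted p 0.0346). Sdf2l1 was at 165 CPM or more in male WT and between 112 and 146 CPM in female WT libraries, without overlap (0.81 ± 0.15, edgeR adjusted p 0.0128). Dnajb9 differed by 0.80 ± 0.16 (edgeR adjusted p 0.0131). Manf had 419, 290, 345 and 372 CPM in male WT against 232, 212, 295, 203 and 163 CPM in female WT libraries, a difference of 0.69 ± 0.13 (edgeR adjusted p 0.0129). Its groups overlapped only through male WT 2 and female WT 3. Dnajb11, the BiP cochaperone with the shorter promoter element, differed by 0.62 ± 0.11 (edgeR adjusted p 0.00961). Dnajc3, another cochaperone, which also inhibits PERK, differed by 0.42 ± 0.11 (edgeR adjusted p 0.0468). Hsp90b1 differed by 0.40 ± 0.11 (edgeR adjusted p 0.0487). The isomerases differed by 0.49 (Pdia4), 0.47 (Pdia6) and 0.38 (Pdia3).

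The ATF4 arm lay the other way in WT islets, with 7 of 7 genes below 0, a median of -0.39 and no gene called by edgeR, although 3 had an unadjusted p below 0.05 and DESeq2 called 2, Chac1 and Eif4ebp1. Chac1 had 7.24, 5.34, 5.25 and 6.80 CPM in male WT and 17.0, 12.7, 4.43, 21.1 and 18.5 CPM in female WT libraries. Female WT 3 was below all males and the other 4 were above them (-1.27 ± 0.36, edgeR adjusted p 0.0753). Without female WT 3, Chac1 (-1.5, edgeR adjusted p 0.00539) and Trib3 (-0.99, edgeR adjusted p 0.0373) were called lower in males. Eif4ebp1 was lower in every male WT than in every female WT library (-0.65 ± 0.20, edgeR adjusted p 0.09). Non-overlapping ranges were found for 7.46% of all tested genes in this comparison.

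The WT sex calls depended on single libraries. Without male WT 4 none of the 32 genes was called, with edgeR adjusted p from 0.0502 for Dnajb11 to 0.187 for Dnajc3, while the arm's median difference was 0.37. The count was 4 without male WT 1 or 3 or female WT 1 or 2 and 5 without female WT 5, and at most 15 over the 18 such fits. A fit on these 9 libraries alone called 2, Sdf2l1 and Dnajb11, and library totals left 4.

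**Figure D5:**
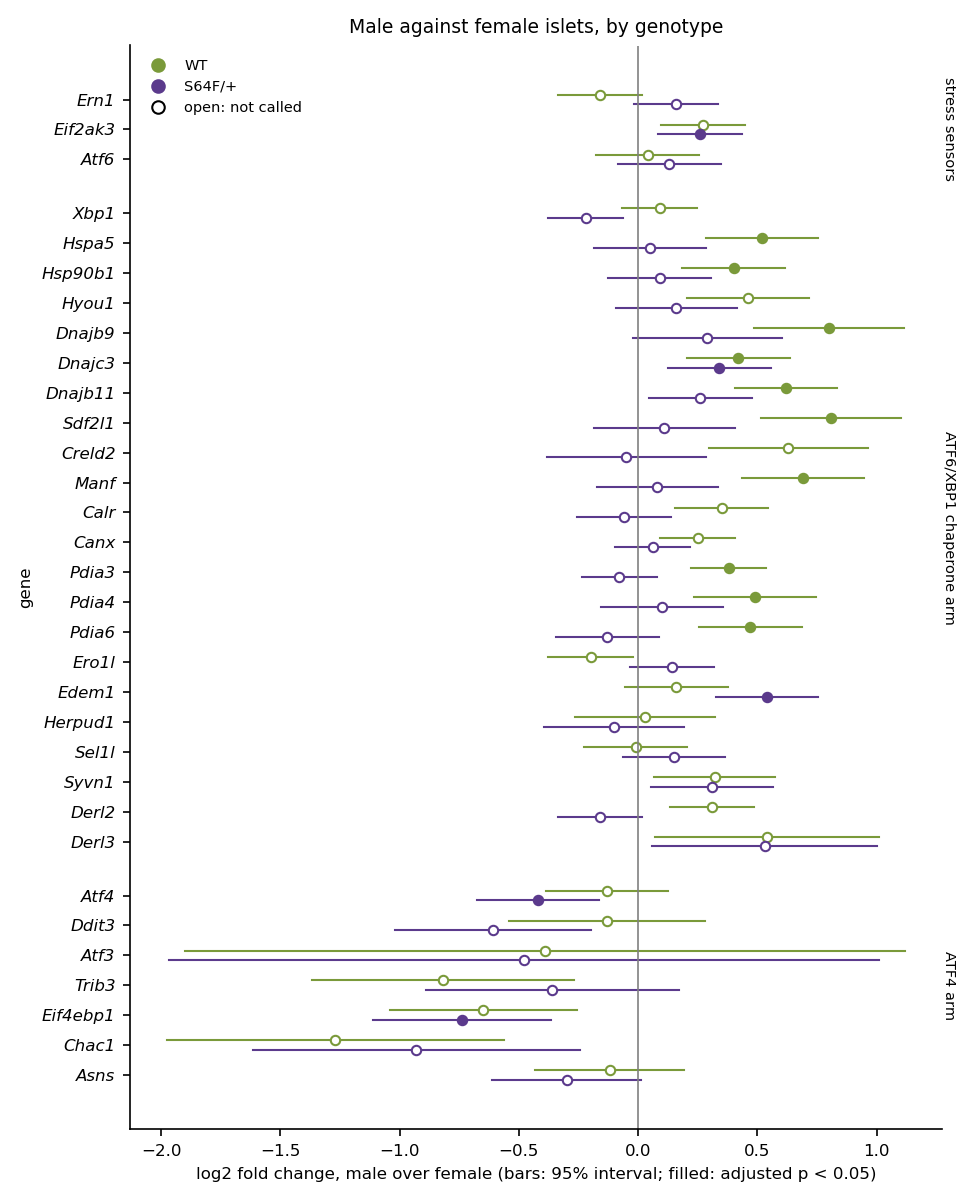
Log2 fold change of male over female islets for each gene in WT (green) and S64F/+ (purple), with bars for the 95% interval and filled points where the edgeR adjusted p is below 0.05. In WT islets the 10 filled points are all in the chaperone arm and all above 0, and in S64F/+ islets the filled points are Eif2ak3, Dnajc3 and Edem1 above 0 and Atf4 and Eif4ebp1 below 0.

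Among S64F/+ islets the chaperone arm lay closer between the sexes, with a median log2 difference of 0.09 (all genes -0.01). For each gene the interaction is the S64F/+ difference between the sexes minus the WT one, so these are not separate results. Between S64F/+ sexes 5 of the 32 genes were called (15.6%), against 16.1% of all tested genes, with 3 higher in males (8.0% of all genes) and 2 lower (8.12%). Edem1 was at 96.5, 115, 111 and 121 CPM in male S64F/+ libraries, all above the 72.6 to 81.0 CPM of the female ones (0.54 ± 0.11, edgeR adjusted p 0.00383), and this call held without any 1 of the 18 libraries. Dnajc3 (0.34 ± 0.11, edgeR adjusted p 0.0378) and Eif2ak3 (0.26 ± 0.09, edgeR adjusted p 0.0484) were higher in males with ranges apart, as were the ranges of 16.2% of all tested genes in either direction. All 7 ATF4-arm genes were below 0, with a median of -0.48. Both called genes were lower in males, Eif4ebp1 with a log2 difference of -0.74 ± 0.19 (edgeR adjusted p 0.0175) and Atf4 with one of -0.42 ± 0.13 (edgeR adjusted p 0.0387). Hspa5 was at 1679 ± 186 CPM in male and 1621 ± 84.7 CPM in female S64F/+ islets, a difference of 0.05 ± 0.12 with an interval of -0.19 to 0.29. Eif4ebp1 lost its call without male S64F/+ 3 (edgeR adjusted p 0.057) and Dnajc3 without female S64F/+ 2, 3, 4 or 5 or male S64F/+ 2, 3 or 4 (up to 0.111). Atf4 was lost without those or male S64F/+ 1 (up to 0.116), and Eif2ak3 in 13 of the 18 fits (up to 0.102). Ddit3 was called lower in males without female S64F/+ 1 or 2 or female WT 1, 2, 3 or 4 (edgeR adjusted p from 0.0234), Chac1 without female S64F/+ 2 or female WT 3 (from 0.0164) and Xbp1 without female S64F/+ 1 (0.0415). With library totals 8 genes were called higher and 1 lower, while the median of all genes moved to 0.18.

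Genes of the same systems outside the 32 were counted from 4 further lists. Of 53 tested further ER folding and degradation genes, 5 were higher and 14 lower in male S64F/+ islets, with a median log2 fold change of -0.14, and 6 were higher and 5 lower in females. That is 35.8% called in males, against 27.6% of all tested genes (15.3% higher and 12.3% lower), and 20.8% in females, against 21.2% (10.2% and 11.0%). Ero1lb, the ER oxidase of beta cells, fell in both sexes, from 2608 ± 393 to 1586 ± 147 CPM in males (-0.72 ± 0.11, edgeR adjusted p 7.05e-05) and from 1927 ± 131 to 1251 ± 53.9 CPM in females (-0.62 ± 0.09, edgeR adjusted p 0.000118). Sil1, a nucleotide exchange factor of BiP, rose in both sexes, by 0.33 ± 0.08 and 0.56 ± 0.08. Ppic, a prolyl isomerase, rose by 1.37 ± 0.21 in males. Of 30 tested genes of ER translocation and signal peptide processing, 0 were higher and 8 lower in male S64F/+ islets, and 4 were higher and 0 lower in females, or 26.7% and 13.3% called. Of all tested genes 27.6% were called in males and 21.2% in females in either direction. Those called lower in males were 12.3% and those called higher in females 10.2%. The signal peptidase subunit genes Spcs3 and Spcs2 fell in males by 0.53 ± 0.09 and 0.45 ± 0.09, and Spcs1 rose in females by 0.62 ± 0.14, as did Srp14 of the signal recognition particle by 0.51 ± 0.14. In WT islets 8 of these 30 genes and 10 of the 53 were higher in males (26.7% and 18.9%), against 1.73% of all tested genes, and 0 were lower.

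Of 46 tested further genes of the ATF4 arm, 8 were higher and 2 lower in male S64F/+ islets, and 9 higher and 2 lower in females, with medians of 0.03 and 0.16. The shares called, 21.7% and 23.9%, were near those of all genes (27.6% and 21.2%). In males Gpt2, an alanine aminotransferase, rose by 0.73 ± 0.10 and the death receptor gene Tnfrsf10b by 1.23 ± 0.20. Gadd45a, a growth arrest gene, rose in both sexes, by 0.58 ± 0.14 and 1.03 ± 0.13, and Eif2s1, the eIF2 alpha subunit, rose in females by 0.43 ± 0.07. The effect on Tnfrsf10b, a gene named for its small p in males, differed between the sexes by 1.29 ± 0.27 (edgeR adjusted p 0.0157). Its mean level was low, at 1.62 CPM in male WT and 3.80 CPM in male S64F/+ islets. The interaction was called higher for 1 of the 46 genes and lower for 1 (4.35%), against 4.47% of all tested genes. Of 16 tested further signalling genes, 1 was higher and 2 lower in each sex, and the 18.8% called was below the share of all genes in both. Nfe2l2, the oxidative stress factor NRF2 and a substrate of PERK, rose by 0.52 ± 0.10 in males and 0.48 ± 0.09 in females. Bax, a pro-apoptotic effector, fell in males by 0.47 ± 0.11, and Creb3l1, an ER-bound transcription factor, fell in females by 0.66 ± 0.10.

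In some libraries nearly all chaperone-arm genes deviated from the group mean in one direction. In male WT 2, 0 of 22 genes were above the group mean, against 19 in male WT 1 and 21 in male WT 4. In male S64F/+ 4 all 22 were above it and in male S64F/+ 1 only 1 was. In female WT 2, 0 of 22 were above the group mean and in female WT 3 20 were. Other libraries were mixed, with 9 in male WT 3, 8 to 13 in female WT 1, 4 and 5 and 5 to 16 in the 5 female S64F/+ libraries. The summed CPM of 12 acinar markers, from exocrine cells that also carry much ER, was 30388, 3143, 16006 and 28696 in male WT 1 to 4 and 11282, 13890, 4602 and 19304 in male S64F/+ 1 to 4. For female WT 1 to 5 it was 18270, 12445, 26908, 19943 and 47806, and for female S64F/+ 1 to 5 it was 20259, 28701, 40967, 17291 and 23766. In males the library lowest in the arm within WT was thus also the lowest in acinar markers, and the library highest in the arm within S64F/+ was the highest, but S64F/+ 1, lowest in the arm, was above S64F/+ 3 in acinar markers. In females, WT 2 was lowest in both the arm and the acinar markers, and WT 3, highest in the arm, was below only WT 5 in acinar markers. Female WT 5 itself had 8 of 22 genes above the group mean. The S64F/+ females with the highest and lowest acinar sums, 3 and 4, each had 13 of 22 above it. None of the 12 acinar markers was called in a genotype comparison or between WT sexes, with medians of -0.67 in males, 0.04 in females and -0.32 between WT sexes, and 1 was called higher in male than in female S64F/+ islets, where the median was -1.02. With the log2 acinar sum as a covariate, a fit added after the data were seen, 9, 8 and 3 members were called for males, females and the interaction and 15 between WT sexes. The calls made without it were all kept there. Between S64F/+ sexes that fit called 4 members and lost Eif4ebp1, Atf4 and Eif2ak3.

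Markers of other cells moved with genotype too, and in whole islets fewer cells of a type and less RNA per cell cannot be told apart. Of 10 beta-cell markers 9 were lower in male and 8 in female S64F/+ islets, and of 8 alpha-cell markers 1 was higher in males and 8 in females. Of 9 stellate-cell markers 8 were higher in male and 0 in female S64F/+ islets, and of 8 ductal markers 6 and 3 were. Of 9 macrophage markers 6 were higher in each sex, and 1 was lower in males. Of 5 delta-cell markers 4 were higher in each sex. Of 8 endothelial markers 5 were higher and 1 lower in males, and 0 were higher and 1 lower in females. Of all tested genes 15.3% were called higher and 12.3% lower in males, and 10.2% and 11.0% in females. Summed CPM of the stellate markers ran from 221 to 540 in male WT and from 1548 to 2360 in male S64F/+ libraries, and that of the alpha markers from 34124 to 42406 in female WT and from 59819 to 82946 in female S64F/+ libraries. The beta-cell sum, which includes Mafa, Ins1 and Ins2, ran from 212549 to 290092 in male WT and from 126930 to 141138 in male S64F/+ libraries. In females this sum overlapped, at 167551 to 308243 in WT (median 184251) and 132433 to 244668 in S64F/+ libraries (median 203793). The part of these cells in the values of the 32 genes was not tested.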

How the data were processed

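RNA-seq counts of 18 islet libraries were analysed, grouped by the sample titles. The authors deposited raw counts per gene and library. GRCm38, STAR and featureCounts, together with FastQC, MultiQC and DESeq2, stand in the submitters' processing notes. Versions, annotation, strand setting and the treatment of multi-mapping reads were not given in the sources used here. FPKM values, also deposited, were recovered from the counts with the column totals and 1 length per gene (within 0.1%, all 33562 genes with a count) and were used for levels per gene and for sums over insulin and chaperone genes, with no test. Per the labels' protocols, reads of 150 nucleotides came from samples with an RNA integrity number above 8.0.

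The 99 spike-in features, all at 0, were left out. Genes were kept with filterByExpr (minimum count 10, minimum total 15), scaled by TMM (the trimmed mean of M values) and fitted with edgeR 4.0.16 (R 4.3.3), quasi-likelihood and robust, 1 coefficient per group over all 18 libraries. The common biological coefficient of variation was 24.4%. Tests were two-sided, with Benjamini-Hochberg adjustment over the 18364 tested genes within each of 5 contrasts. The standard error was the log2 fold change over the square root of F, and 95% intervals reach 1.96 standard errors to either side. The procedure was tested on simulated data in which a small set of genes was changed, as many up as down. That simulation does not bear on the choice of scaling. No replicate repeated another (chi-square per degree of freedom at least 19.9). Female libraries of equal replicate number were correlated in their deviations from the group means. Their correlations were 0.11 to 0.418 over the 5 numbers, each above a fixed limit of 0.1. Female WT 3 and 4 still correlated best with an S64F/+ library of another number, so equal numbers do not establish pairs. The fit described above held no pairing term, so its p-values are unpaired in both sexes. Equal numbers were paired only in an alternative fit, the replicate block, which paired them within each sex. Any pairing of females would rest on the data alone, since the labels give none. Male correlations ran from -0.249 to 0.189, and only that of number 4 was above the limit.

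Alternatives were DESeq2 1.42.0, library totals, relative log expression scaling, no filter, only the groups of a contrast, a replicate block, leaving out each library and, added later, an acinar covariate. Gene positions came from GENCODE M21, promoters from RefSeq. All 32 members were named, with Ins1, Ins2 and Mafa, and of the other lists up to 2 called genes with the smallest p per genotype contrast. The members and lists were chosen with earlier results of these data known.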

Additional observations from a re-analysis of the deposited data

Results flagged for a closer look

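In 128 checks of a gene in a group of 4 or 5 libraries, 8 had a lone library far from the others, where chance gives about 1 in 20. Female WT 3 was the high library for Dnajc3 (381 CPM, the others 289 to 310), Dnajb11 (133, the others 95.4 to 101) and Hyou1 (1164, the others 830 to 891). Female WT 2 was the low library for Xbp1 (242 CPM, the others 282 to 297) and Calr (730, the others 891 to 923). Atf3 stood at 51.8 CPM in female WT 4 (the others 5.40 to 15.1), Syvn1 at 155 CPM in male WT 1 (the others 109 to 116) and Eif4ebp1 at 10.4 CPM in male S64F/+ 3 (the others 12.3 to 12.7).

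By the tested interaction, the genotype effect differed between the sexes for Pdia3 (-0.46 on the log2 scale, male minus female), Derl2 (-0.48) and Pdia6 (-0.60). These calls were lost in 12, 9 and 12 of the 18 fits that left out a library. All of them were also lost with library totals and without the filter. The cause was not tested.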

How the results depend on the processing

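No called member changed direction under the alternatives run. Library totals gave 5 called members for the male genotype effect, 4 between WT sexes and 9 between S64F/+ sexes, and without the filter, where 33562 genes were tested, there were 5, 5 and 2, and 0 for the interaction. The shares of all genes called were 26.8%, 0.61% and 17.0% with library totals and 12.5%, 0.751%, 5.87% and 1.43% without the filter. DESeq2 called 12 for the female effect, 6 for the interaction and 17 between WT sexes, where it called 24.4%, 9.87% and 5.45% of all genes (edgeR 21.2%, 4.47% and 2.36%). Fits on the compared groups alone called 2 between WT sexes and 2 between S64F/+ sexes (1.32% and 12.4% of all genes). Leaving out each library gave 5 to 11 calls for the male effect (5 without male WT 1, male WT 4 or male S64F/+ 1), 5 to 10 for the female effect, 0 to 8 for the interaction, 0 to 15 between WT sexes and 1 to 7 between S64F/+ sexes (1 without male S64F/+ 3). The replicate block gave 8 calls for males, 6 for females and 4 for the interaction. It ended the calls of Creld2 in males (edgeR adjusted p 0.0547) and Trib3 in females (0.107) and changed no other call of a member apart from adding Ero1l to the interaction (0.0484). The cause of these changes was not tested. The strand setting is not given, so reads of overlapping antisense genes cannot be told apart, and the depth of the smallest library, 19.3 M counts, bears most on members with few counts such as Trib3.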

Other observations

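The chaperone arm was also set against the insulin message. The ratio stood higher in every male S64F/+ than in every male WT library and overlapped in females. In males the insulin sum was lower in S64F/+ islets and the arm sum was nearly the same. FPKM are scaled by library totals, whereas the male median of the arm was below 0 under composition scaling. The 22 genes of the arm summed to 1810 ± 143 FPKM in male WT and 1796 ± 157 FPKM in male S64F/+ islets (SD, n = 4 each). Per 1000 FPKM of Ins1 and Ins2 together that was 18.9 ± 0.713 and 32.7 ± 2.51, with a range of 18.2 to 19.7 in WT and of 30.7 to 36.1 in S64F/+ libraries. In females the arm summed to 1373 ± 157 and 1541 ± 46.0 FPKM (n = 5 each), or 17.2 ± 4.57 and 23.6 ± 5.37 per 1000 insulin FPKM, with overlapping ranges. The insulin sum itself was 95727 ± 7384 and 54838 ± 2196 FPKM in male WT and S64F/+ islets and 82965 ± 16746 and 67813 ± 13335 FPKM in females, and Ins1 and Ins2 share near-identical sequence, so that reads can be split between them. These ratios mix cells that make insulin with cells that do not, and no test was run on them.

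The chaperone arm was also described by its promoter letters, with no test. The 11 genes with the longer or shorter ER stress element in their window had a median male-minus-female WT difference of 0.42 (5 called higher), and the 9 genes with a window but without these letters had 0.31 (4 called higher). The medians of the male genotype effect were -0.14 and -0.23, and those of the female effect 0.14 and 0.04. In females the genes with the letters ranged from -0.16 to 0.46 with 1 called higher and 0 lower, and those without from -0.61 to 0.49 with 2 called higher and 2 lower.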
